A study of Homo sapiens with 10 samples.

Results

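Origin licensing is the step that marks where DNA replication may start, and CDC45 and GINS are the proteins that turn a licensed site into a moving replication fork. The 10 genes described here are CDC6, CDT1, GMNN, ORC1 and ORC6 of the licensing step and CDC45, GINS1, GINS2, GINS3 and GINS4 of the helicase. Members were found by gene symbol in the platform annotation, and each had 1 probe set, so they make up 10 of 18569 probe sets. The cells were A375, an established human skin melanoma line with an activating BRAF mutation, kept for 4 days in doxycycline (2 µg/ml) from plating on, and they were compared with A375 cells plated without the drug. RNA of both groups was taken on day 4 from cultures in RPMI1640 with glutamine and serum, and hybridised to Clariom S arrays, 5 per group. Omomyc, a mutated dimerisation domain of MYC that competes with MYC itself, stands in the title of the series, but the labels do not describe a construct, a clone or its promoter, and none of the 10 arrays is labelled as doxycycline without Omomyc. What is compared here is therefore doxycycline with control, and an effect of doxycycline alone cannot be told apart from one of Omomyc. The labels call the arrays of a group biological replicas without saying whether they came from separate cultures, and the p-values rest on the spread between arrays, part of which may be technical.

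In a dividing cell the origin recognition complex (ORC) binds DNA, CDC6 joins it, and CDT1 brings in the MCM ring, which is loaded around the DNA but stays idle. When S phase begins, kinases and loading factors attach CDC45 and the GINS complex to MCM, and the joined assembly, called CMG, unwinds the DNA. Geminin, the product of GMNN, binds CDT1 after that and keeps origins from being licensed again in the same cycle. Many of these genes are known targets of E2F transcription factors, which drive the S phase programme.

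The start regions of the genes are shown first, because E2F letters are known from the start regions of such genes. Whether E2F factors had a part in the change of the members was not tested. RefSeq (GRCh38.p14) start windows, which hold 250 bases before and 50 after a gene's start, were used for 9 of the 10 members. They were matched by symbol, and no window of GINS4 was used. The letters TTTCCCGC, TTTGGCGC or TTTCGCGC, on either strand, were found in the windows of 6 of these 9 genes, against 4.49% of 14129 measured genes with such a window. A gene was counted if any of its listed windows held the letters, and a match is a description of letters, not a bound site. Each stretch below holds 30 bases, written 5′ to 3′ along the gene, with the E2F letters in capitals.
GINS2, chr16:85688967-85688996, minus strand: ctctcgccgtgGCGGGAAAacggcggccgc
CDT1, chr16:88803743-88803772, plus strand: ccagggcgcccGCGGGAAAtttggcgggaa
GINS3, chr16:58392455-58392484, plus strand: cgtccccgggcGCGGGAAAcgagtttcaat
GMNN, chr6:24775322-24775351, plus strand: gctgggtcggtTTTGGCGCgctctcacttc
CDC6, chr17:40287875-40287904, plus strand: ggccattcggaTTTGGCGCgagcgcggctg
GINS1, chr20:25407667-25407696, plus strand: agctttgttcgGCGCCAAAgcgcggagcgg

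In GINS2 and CDT1, which were among the members that fell most, the capital letters began 31 and 35 bases before the start and read the same. GINS3, the member that fell least, carried those same letters 5 bases before its start, so the letters did not sort the genes by the size of their change. The match of GMNN began 80 bases before its start, and the matches of CDC6 and GINS1 began at bases 8 and 6 of the transcript.

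CDC45, ORC1 and ORC6 had none of these exact letters in their windows, and near matches were not searched. They held CCAAT, or ATTGG on the other strand, the letters that the factor NF-Y is known to bind, and these are capitals in the stretches that follow. CCAAT was present in 7 of the 9 genes, against 42.3% of the measured genes, so it is a common feature of start regions. The E-box CACGTG, the letters that MYC with MAX is known to bind, was in the window of 1 of the 9 genes, GMNN, at base 11 after another of its starts, against 10.8% of the measured genes. No exact E2F match overlapped a match of another motif.
CDC45, chr22:19479801-19479830, plus strand: gccgcctCCAATgtggcCCAATcagaaaga
CDC45, chr22:19479854-19479883, plus strand: ctATTGGttggtgatccctggaCCAATcgg
ORC1, chr1:52404429-52404458, minus strand: ggggccacgccgATTGGcgcgaagttttct
ORC6, chr16:46689543-46689572, plus strand: aggaagaccctgATTGGtttgtgggacggt
ORC6, chr16:46689579-46689608, plus strand: gtcctgtcctaaCCAATccagatgcgccgg

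All 10 genes had lower signal in doxycycline-treated A375 cells. CDC45 fell most, to a signal 5.11-fold lower than in control cells, and GINS3 fell least, to one 1.46-fold lower. Every member passed the test in the same direction (limma, Benjamini-Hochberg adjusted p under 0.05 over all probe sets), against 17.2% of all probe sets called lower, 20.9% called higher and 38.1% called in either direction. In 7 of the 10 the fall was at least 1 log2 unit, against 4.04% of all probe sets, and for all 10 the 5 doxycycline arrays lay below the 5 control arrays, against 13.6%. The median log2 fold change of the members was -1.46, and that of all probe sets was 0.04. Values are log2 units of the deposited signal throughout, and a fold change is doxycycline over control with the SE of the fit.

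**Figure D1:**
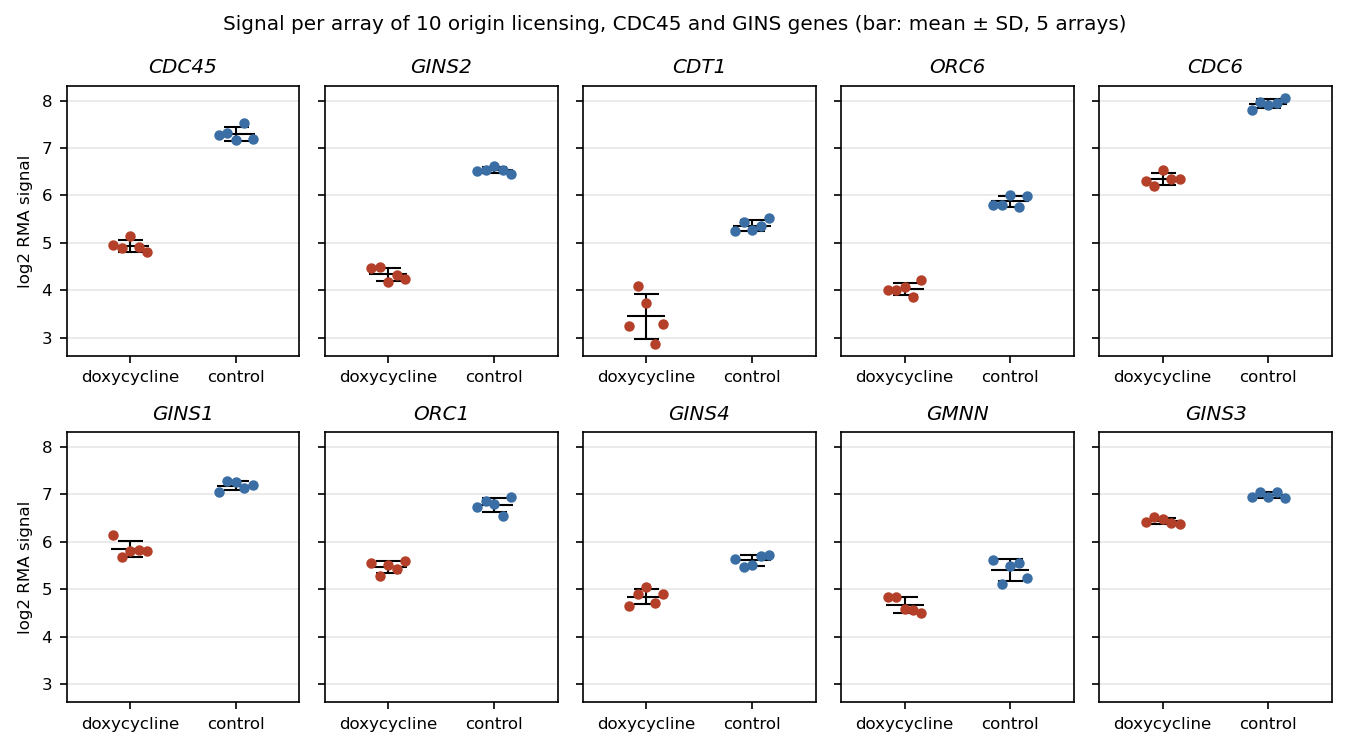
Log2 signal of each of the 10 genes on each array, with 5 doxycycline arrays on the left and 5 control arrays on the right of each panel, and a bar for the mean ± SD. In every panel all doxycycline points lie below all control points. CDT1 has the widest spread with doxycycline, from 2.87 to 4.09.

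Among the helicase genes CDC45 changed most. CDC45 encodes a protein that travels with the MCM ring and GINS as part of CMG and is needed throughout elongation. Its signal on the 5 doxycycline arrays was 4.96, 4.89, 5.14, 4.91 and 4.80, against 7.28, 7.31, 7.16, 7.52 and 7.19 on the 5 control arrays. The groups stood 2.02 log2 units apart at their closest arrays, the widest such gap of the 10 genes. The log2 fold change was -2.35 ± 0.09 (adjusted p = 1.02e-10), and 0.291% of all probe sets had a change that low or lower.

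GINS2 encodes the subunit also known as PSF2. It read 4.46, 4.49, 4.18, 4.33 and 4.24 with doxycycline and 6.52, 6.54, 6.62, 6.53 and 6.45 in control cells. The control arrays spanned under 0.2 log2 units, and the gap to the highest doxycycline array was 1.96. GINS2 fell by 2.19 ± 0.08 log2 units (adjusted p = 8.91e-11), or 4.57-fold.

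GINS1, which encodes PSF1, fell less. Its signal was 6.14, 5.69, 5.80, 5.83 and 5.80 with doxycycline and 7.05, 7.29, 7.25, 7.13 and 7.20 in control cells, with doxycycline array 1 the highest of its group. The log2 fold change was -1.33 ± 0.09 (adjusted p = 2.94e-08), or 2.52-fold lower. The gap between the closest arrays of the groups was 0.91.

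GINS4 encodes SLD5 and GINS3 encodes PSF3, the other subunits of the complex, and both had smaller changes. GINS4 measured 4.64, 4.91, 5.05, 4.72 and 4.90 with doxycycline, against 5.65, 5.48, 5.51, 5.71 and 5.73 in control cells. GINS3 measured 6.41, 6.52, 6.49, 6.39 and 6.37 with doxycycline, against 6.95, 7.06, 6.95, 7.05 and 6.92 in control cells. The groups did not overlap for either gene, with gaps of 0.43 for GINS4 and 0.40 for GINS3. GINS4 fell by 0.77 ± 0.09 (adjusted p = 1.03e-05) and GINS3 by 0.55 ± 0.07 (adjusted p = 2.56e-05), and GINS3 had the tightest arrays, with an SD of 0.06 in the doxycycline group.

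The GINS proteins are known to assemble in equal numbers, so the design allows the question whether their RNA signals changed equally. Each subunit was read by 1 probe set, and dim probe sets show compressed fold changes. Unequal changes of signal can therefore arise without unequal changes of RNA. For each of the 6 pairs of subunits the difference of log2 signal within an array was compared between the groups with a two-sided exact permutation test, whose smallest possible p is 0.00794, and p was adjusted over the 6 pairs. Errors of these differences are SEs from the spread of both groups. GINS2 fell 0.86 ± 0.09 log2 units more than GINS1, 1.42 ± 0.14 more than GINS4 and 1.64 ± 0.07 more than GINS3 (exact permutation p = 0.00794 and adjusted p = 0.0119 for each pair). GINS1 fell 0.78 ± 0.10 more than GINS3 at the same p values. In these 4 pairs the groups of arrays did not overlap.

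The remaining pairs were less firm. GINS1 fell 0.56 ± 0.16 more than GINS4 (exact permutation p = 0.0317, adjusted p = 0.0381), with overlapping arrays, and the call was lost in 9 of 10 fits that left out 1 array. GINS4 fell 0.22 ± 0.09 more than GINS3 (exact permutation p = 0.0476, adjusted p = 0.0476), and that call was lost in 8 of 10 such fits.

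**Figure D2:**
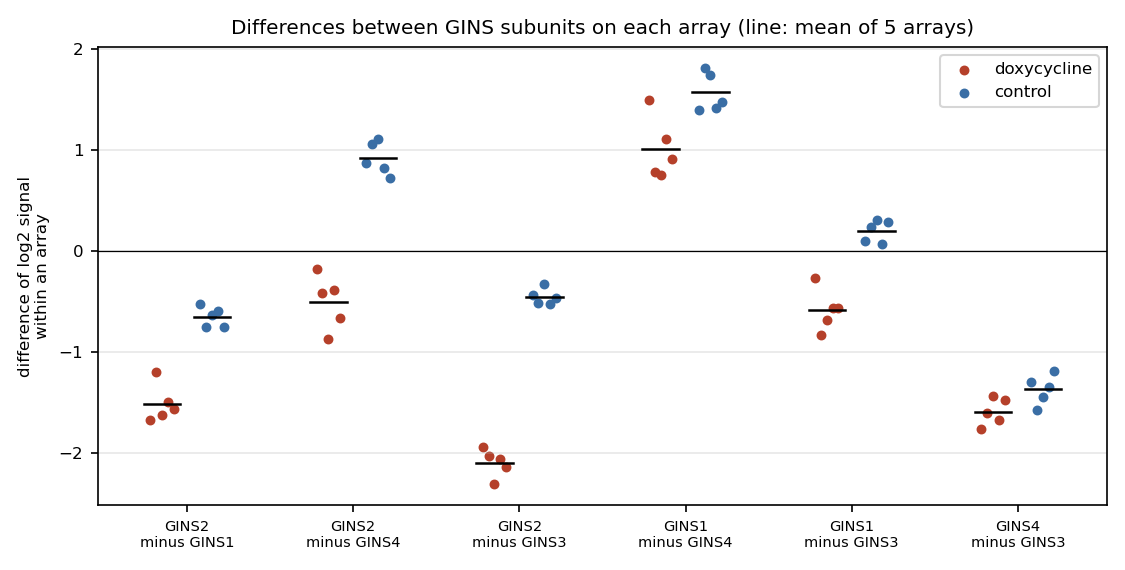
Difference of log2 signal between GINS subunits within each array, for the 6 pairs, with doxycycline arrays left of control arrays and a line at the mean of 5 arrays. The groups are apart for GINS2 minus GINS1, GINS2 minus GINS4, GINS2 minus GINS3 and GINS1 minus GINS3, and overlap for GINS1 minus GINS4 and GINS4 minus GINS3.

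Of the licensing factors, CDT1 had the largest change and the least even arrays. CDT1 escorts the MCM ring to ORC and CDC6 and is removed once S phase starts. Its signal was 3.25, 4.09, 3.74, 2.87 and 3.28 with doxycycline and 5.25, 5.43, 5.27, 5.34 and 5.52 in control cells. The SD was 0.47 over the doxycycline arrays and 0.11 over the control arrays, while no other member had an SD above 0.17 with doxycycline. Array 4, the lowest, lay within the range of 2.80 to 2.94 in which the first quartiles of the 10 arrays fell. The log2 fold change was -1.92 ± 0.18 (adjusted p = 5.10e-07), or 3.77-fold lower.

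CDC6 encodes the ATPase that joins ORC to load MCM. Its signal was 6.31, 6.19, 6.54, 6.36 and 6.35 with doxycycline, against 7.80, 7.97, 7.91, 7.96 and 8.05 in control cells. The closest arrays of the groups were 1.26 apart. CDC6 fell by 1.59 ± 0.08 log2 units (adjusted p = 2.15e-09), or 3.01-fold.

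GMNN, whose product geminin inhibits CDT1, had a smaller change than CDT1. Geminin RNA signal was 4.84, 4.84, 4.59, 4.56 and 4.50 with doxycycline and 5.63, 5.10, 5.50, 5.56 and 5.24 in control cells. The gap of 0.26 between the groups was the narrowest of the 10 genes, and the control SD of 0.22 was the widest. GMNN fell by 0.74 ± 0.11 (adjusted p = 9.93e-05), or 1.67-fold. As a description, the difference CDT1 minus GMNN within an array averaged -1.22 ± 0.42 with doxycycline and -0.04 ± 0.32 in control cells (SD, n = 5 each). These differences ran from -1.69 to -0.75 with doxycycline and from -0.38 to 0.33 in control cells, without overlap, and were not tested because the pair was singled out after its values were seen.

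ORC1 is the largest ORC subunit, an ATPase known to be removed during S phase in human cells, and ORC6 is a small subunit that is bound loosely there. ORC1 read 5.55, 5.29, 5.52, 5.42 and 5.59 with doxycycline, against 6.73, 6.85, 6.80, 6.54 and 6.96 in control cells. ORC6 read 3.99, 4.01, 4.06, 3.86 and 4.22 with doxycycline, against 5.80, 5.79, 6.01, 5.76 and 5.99 in control cells. The closest arrays of the groups were 0.95 apart for ORC1 and 1.54 apart for ORC6. ORC1 fell by 1.30 ± 0.09 (adjusted p = 3.71e-08), or 2.47-fold, and ORC6 by 1.84 ± 0.09 (adjusted p = 7.99e-10), or 3.59-fold.

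Ordered by the size of the fall, the members ran CDC45, GINS2, CDT1, ORC6, CDC6, GINS1, ORC1, GINS4, GMNN and GINS3. The 95% intervals of neighbours in this order overlapped except between ORC1 (-1.50 to -1.10) and GINS4 (-0.97 to -0.57). Genes farther apart in the order could still differ, and the intervals of CDC45 (-2.55 to -2.16) and GINS2 (-2.37 to -2.01) lay below those of CDC6 (-1.77 to -1.41), GINS1 (-1.53 to -1.13) and ORC1.

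**Figure D3:**
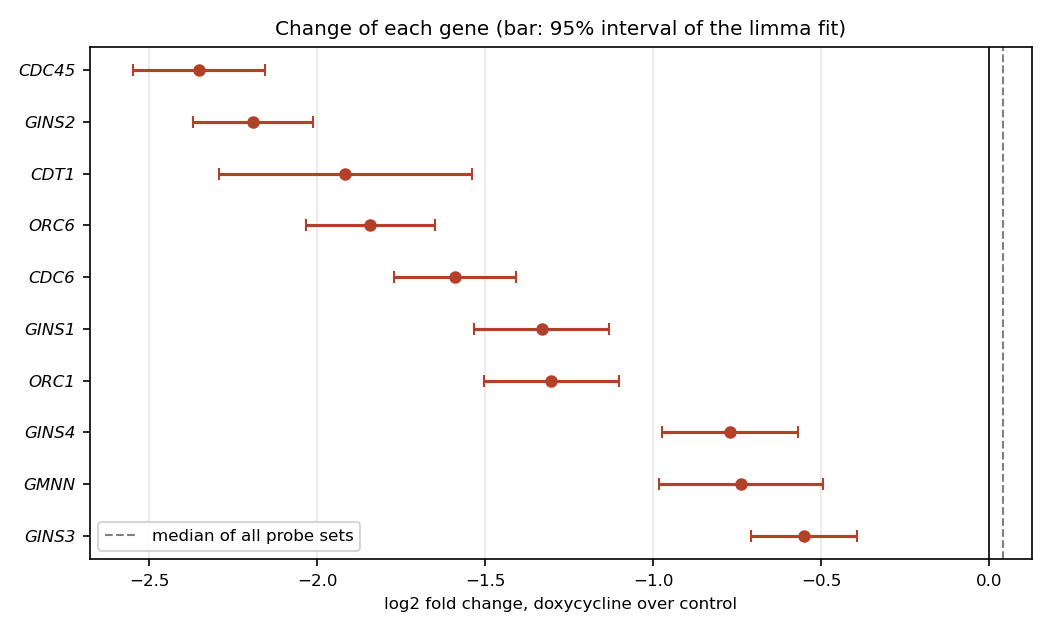
Log2 fold change of doxycycline over control for each gene, sorted, with the 95% interval of the limma fit. All intervals lie below 0 and below the median of all probe sets, 0.04, drawn as a dashed line, and a gap without overlap separates ORC1 from GINS4.

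The fall was seen on all 5 doxycycline arrays. The mean of the 10 members was 5.05, 5.09, 5.11, 4.92 and 5.00 on the 5 doxycycline arrays and 6.46, 6.48, 6.50, 6.51 and 6.52 on the 5 control arrays. Doxycycline arrays 2 and 5 were each the lowest of their group for 3 members, while array 2 was also the highest for 3. The deviations of single arrays from the group mean went in both directions on every array, but barely so on doxycycline array 4. On that array, which had the lowest mean of its group, CDC6 (0.01) was the only member above its group mean. On control array 1, only GINS4 (0.03) and GMNN (0.22) were above theirs.

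**Figure D4:**
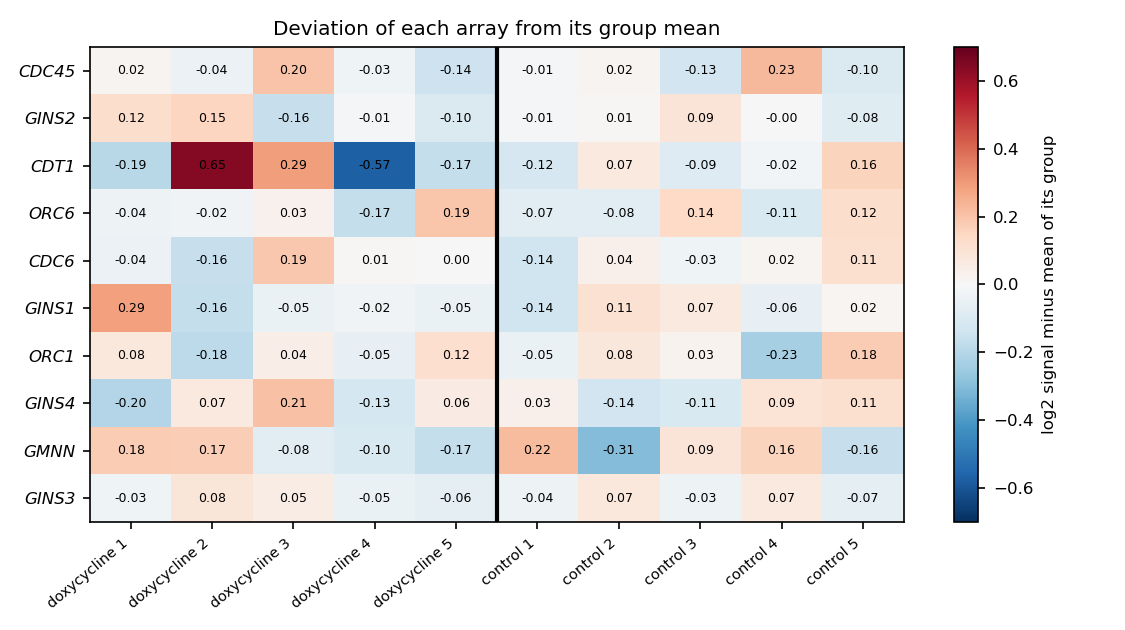
Log2 signal of each member (rows, sorted by change) on each array (columns, doxycycline left of control) minus the mean of its group. The largest deviations are those of CDT1 on doxycycline arrays 2 (0.65) and 4 (-0.57). In the column of doxycycline array 4 the only value above 0 is that of CDC6 (0.01). In that of control array 1 only GINS4 (0.03) and GMNN (0.22) lie above 0, while the remaining columns hold several values of each sign.

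The rest of the pathway showed which neighbouring steps moved with the members. The counts below stand against 17.2% of all probe sets called lower and 20.9% called higher. Among the other ORC subunits 2 of 4 measured genes fell and none rose. ORC3 (-0.48 ± 0.13, adjusted p = 0.00679) and ORC5 (-0.41 ± 0.10, adjusted p = 0.00398), both core subunits, fell. ORC2 changed by -0.04 (95% interval -0.23 to 0.16) and ORC4 by 0.15 (-0.06 to 0.36), and neither passed. The intervals of these 4 genes lie above those of ORC1 and ORC6.

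All 6 subunits of the MCM hexamer fell, with a median of -1.32, led by MCM2 (-2.11 ± 0.08), MCM5 (-1.66 ± 0.09), MCM6 (-1.61 ± 0.10) and MCM4 (-1.03 ± 0.07). Of the firing factors, which help attach CDC45 and GINS, 6 of 8 fell and none rose, with a median of -0.60. MCM10, which promotes CMG activation, fell by 1.89 ± 0.11 to 2.89 ± 0.20 (SD, n = 5), a level within the range of the first quartiles, against 4.78 ± 0.18 in control cells. DBF4, the activator of the kinase CDC7, fell by 1.74 ± 0.13, more than CDC7 itself (-0.62 ± 0.11), although the difference between them was not tested. MTBP, a partner of the loading factor TICRR, fell by 0.74 ± 0.10. TICRR (-0.18, 95% interval -0.42 to 0.06) and RECQL4 (-0.16, -0.51 to 0.18), both also needed for firing, did not pass.

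All 4 fork companions of CMG fell, with a median of -1.33. CLSPN, which relays the replication checkpoint, had a log2 fold change of -2.16 ± 0.13, and TIMELESS (-1.35 ± 0.15) and TIPIN (-1.30 ± 0.17), which protect the fork as a pair, were close to each other. WDHD1, which links CMG to polymerase alpha, fell by 0.98 ± 0.12.

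Of the genes that control the stability of CDT1, CDC6 and geminin, 5 of 10 were lower, against 17.2% of all probe sets. The 2 of 10 that were higher are near the share of all probe sets called higher, 20.9%. DTL, the substrate receptor that marks CDT1 for destruction during S phase, fell by 2.45 ± 0.12, to 5.67 ± 0.25 against 8.12 ± 0.13 in control cells (SD, n = 5 each). The scaffold of that ligase has 2 forms, of which CUL4A fell (-1.03 ± 0.09, adjusted p = 3.11e-07) and CUL4B rose (0.27 ± 0.08, adjusted p = 0.0104). CCNF, cyclin F, which targets CDC6 (-0.98 ± 0.11), SKP2, another receptor for CDT1 (-0.74 ± 0.08), and FBXO5, which holds back the ligase that removes geminin (-0.67 ± 0.13), fell as well. SKP1 was the other gene that rose (0.30 ± 0.09, adjusted p = 0.0127), with overlapping arrays. FZR1, an activator of the ligase that removes geminin, had a log2 fold change of -0.01 (95% interval -0.16 to 0.15) and did not pass.

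Genes for taking CMG off the DNA fell in 4 of 8 cases and none rose, against 17.2% and 20.9% of all probe sets. The ligase TRAIP (-1.48 ± 0.10) and the substrate receptor LRR1 (-1.07 ± 0.10), which help mark CMG for removal, changed most. CUL2, the scaffold of the ligase that holds LRR1, changed by 0.06 (95% interval -0.14 to 0.26) and did not pass. FAF1 (-0.77 ± 0.07) and UFD1 (-0.36 ± 0.08), cofactors of the segregase VCP, fell less. VCP itself had a log2 fold change of -0.23 (95% interval -0.44 to -0.03) and did not pass after adjustment.

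Of the cyclins and the kinase that act on licensing, 2 of 4 fell and none rose, against 17.2% and 20.9% of all probe sets. CCNA2 fell by 1.65 ± 0.09 and CCNE2 by 1.50 ± 0.10. CCNE1, the other cyclin E, had a log2 fold change of 0.28 (95% interval 0.02 to 0.54, adjusted p = 0.0826), on the other side of 0. It passed under 4 of 17 other settings, one of them the fit without control array 5 (log2 fold change 0.36, adjusted p = 0.0310). CDK2, the partner of both, changed by -0.02 (-0.20 to 0.16).

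Relatives of geminin were dim. MCIDAS, a geminin relative of ciliated cells, fell by 0.87 ± 0.17, to 2.95 ± 0.30 with doxycycline, against 3.82 ± 0.38 in control cells (SD, n = 5 each). GMNC was below the lowest first quartile in both groups, at 1.69 and 1.54, and did not pass.

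**Figure D5:**
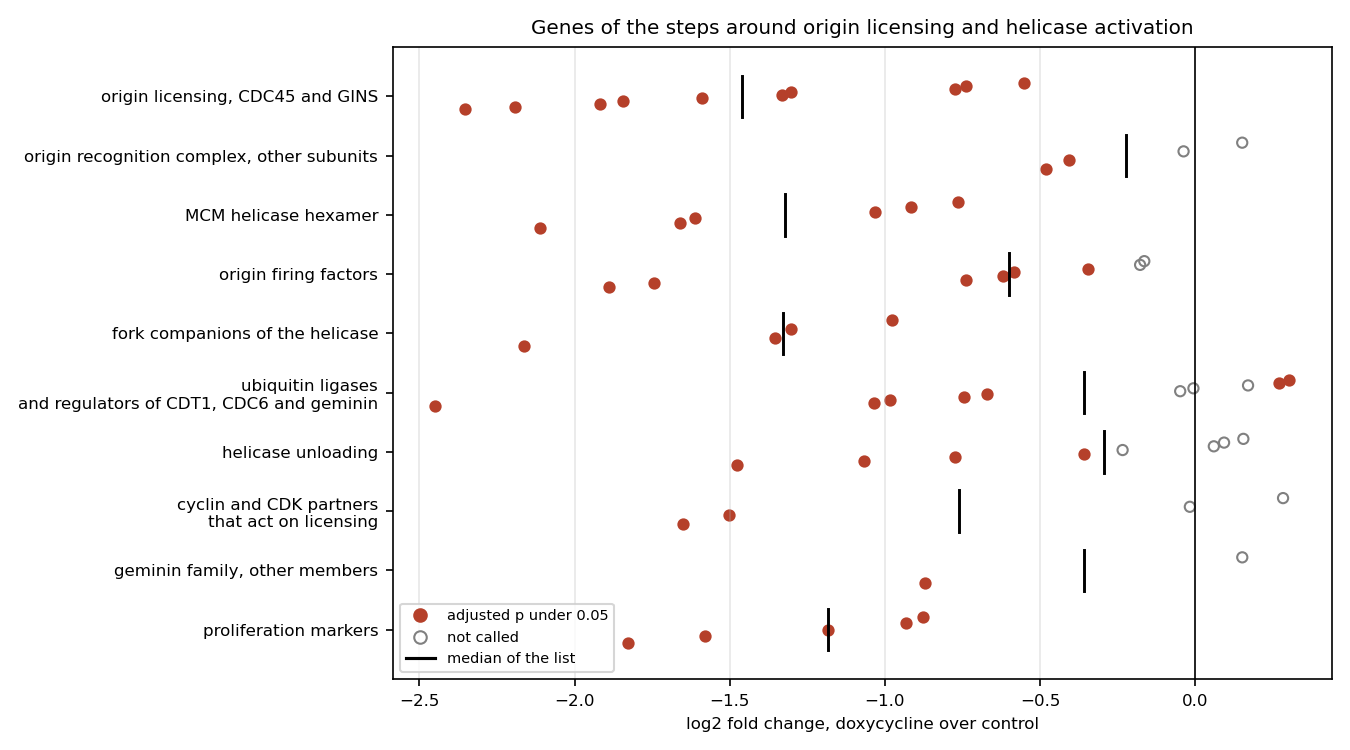
Log2 fold change of doxycycline over control for the 10 members (top row) and for genes of neighbouring steps, 1 point per gene, filled where the adjusted p is under 0.05, with a line at the median of each list. Points of the MCM hexamer, the fork companions and the proliferation markers all lie below -0.7, while the other ORC subunits lie between -0.48 and 0.15.

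Between the groups, proliferation markers moved with the members. MKI67, TOP2A, PCNA, CCNB1 and BIRC5 all fell, with a median of -1.18, and MKI67, which marks cycling cells, had a log2 fold change of -1.58 ± 0.14. Their mean was 6.20, 6.41, 6.44, 6.60 and 6.32 on the 5 doxycycline arrays. On the 5 control arrays it was 7.59, 7.70, 7.75, 7.58 and 7.75. Within the doxycycline group the order of arrays differed, as array 4 had the lowest mean of the members (4.92) and the highest mean of the markers. In RNA of whole cultures fewer cells in S phase and less RNA per such cell cannot be told apart, and the part of the cell cycle in the change of the members was not tested.

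The lineage labels were checked against markers. SOX10 (8.91 ± 0.11 with doxycycline, 8.71 ± 0.13 in control cells) and MITF (8.33 ± 0.07 with doxycycline, 7.12 ± 0.07 in control cells) were well above the median signal. The pigment cell genes PMEL, MLANA and TYR lay below the lowest first quartile in both groups. MITF rose by 1.21 ± 0.08 and TYR by 0.23 ± 0.08, each without overlapping arrays, while SOX10, PMEL and MLANA did not pass. All 4 keratinocyte markers were at or below 2.84 in both groups, and KRT5 rose by 0.39 ± 0.12. Endothelial markers had log2 fold changes of 0.05 to 0.26 and adjusted p of 0.0666 or more. CD14 was the leukocyte marker that rose (0.51 ± 0.09), and KRT8 the epithelial marker that fell (-0.84 ± 0.08), in a line where KRT8 and KRT18 were both bright. The 3 measured fibroblast markers were higher with doxycycline, PDGFRA by 1.64 ± 0.14 and COL1A1 and DCN by under 0.4, and their summed linear signal was 110 to 115 on the doxycycline arrays and 46.0 to 62.7 on the control arrays. None of the 3 was at 0, and their part in the change of the members was not tested. Array medians were 5.02 to 5.10, and arrays correlated at 0.990 to 0.996 within doxycycline, 0.993 to 0.997 within control and 0.970 to 0.976 between groups.

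The profiles most like those of CDC45 and GMNN over the 10 arrays were found by the root mean square difference between profiles centred on their own mean. For CDC45 these were CEBPG (0.10 log2 units), COXFA4L2 (0.14) and TBC1D9B (0.14), with log2 fold changes of -2.24 ± 0.09, -2.41 ± 0.09 and -2.25 ± 0.09. For GMNN they were PIN4 (0.08), MRPL21 (0.11) and MRPS2 (0.12), with log2 fold changes of -0.70 ± 0.11, -0.71 ± 0.12 and -0.68 ± 0.10. This measure depends largely on the difference between the groups, so the closest profiles are bound to have a fall of similar size. None of the 6 is a member.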

How the data were processed

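The authors deposited log2 expression values of 18569 probe sets on 10 arrays, made with RMA (background correction, quantile normalization and probe summary), per the submitters' processing notes. The software version and any filter were not given in the sources used here. RMA equalises arrays and hides a change of RNA content per cell, and dim probe sets show compressed fold changes. Symbols came from the platform annotation, which left 1058 probe sets unnamed here. Where a listed gene had several probe sets, the one with the highest mean stood for it. The doxycycline and control arrays were fitted in limma 3.58.1 (R 4.3.3; lmFit, then eBayes) with group as the only term and two-sided tests, with Benjamini-Hochberg adjustment over all probe sets. Pairs of GINS genes were compared with exact permutation tests in SciPy 1.17.1. Both tests were tested on simulated data. The members, the lists and the motifs were chosen with earlier results of these data known. Named genes were all members, up to 4 called genes per list by size (more where a small count was spelled out, as were genes that did not pass, chosen after their values were seen), and the 3 profiles nearest to CDC45 and GMNN. Samples with the same replicate number did not deviate together (correlations of -0.44 to -0.01), so no block was used. Alternatives were signal filters, centring, quantile normalization, other variance settings, array weights, a replicate block and leaving out each array. Scanner files were not used here, and LRWD1 and DONSON had no probe set named for them.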

Additional observations from a re-analysis of the deposited data

Results flagged for a closer look

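Among 39 genes, the 10 members and the genes named from the lists by size, 78 groups of 5 arrays were searched for an array that stood apart by its gap to the nearest other array relative to the range of the group, a rule that chance meets in about 1 of 20 groups. It was met 3 times and by no member. ORC5 read 7.51 on doxycycline array 1, below the 7.82 to 7.91 of the other doxycycline arrays. MCM2 read 5.49 on that same array, above the 5.28 to 5.34 of the others. UFD1 read 8.33 on doxycycline array 5, below the 8.55 to 8.63 of the others.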

How the results depend on the processing

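All 10 members stayed lower and past the threshold under every alternative in which they were tested, 167 of 167 refits, and the largest adjusted p was 6.02e-04, for GMNN with the replicate number as a block. The filter at the median signal left out CDT1, GMNN and ORC6. CDC45 ranged from -2.40 to -2.30, GINS3 from -0.57 to -0.52 and CDT1 from -2.08 to -1.77. Over the listed pathway genes 847 refits kept their call and 11 gained one, for DDB1, VCP and CCNE1. The count of cyclin and CDK genes called higher became 1 (CCNE1) without probe sets under the median signal, with arrays centred on their median, with array weights and without control replicate 5, in place of 0. The count of called lower genes among the regulators of CDT1, CDC6 and geminin became 3 under the median filter, which tests fewer genes. With replicate numbers as a block no count of members or of all probe sets moved by over 1.5 times (2977 lower and 3499 higher, against 3203 and 3875), it ended no call of a member or a pathway gene, and no doxycycline array correlated best with the control array of its number. For the GINS pairs the block leaves 5 differences and a smallest exact permutation p of 0.0625, so no pair could pass (differences -0.86, -1.42, -1.64, -0.56, -0.78 and -0.22, adjusted p of 0.0938 or 0.125). Leaving out 1 array gave -0.68 to -0.50 for GINS1 minus GINS4, with adjusted p up to 0.0762, and -0.27 to -0.18 for GINS4 minus GINS3, with adjusted p up to 0.0952, while the other 4 pairs kept their calls. With 5 arrays per group, CDT1, MCIDAS and TIPIN had standard errors of 0.18, 0.17 and 0.17. With doxycycline CDT1 (3.45) and MCIDAS (2.95) were dim, and TIPIN (4.62) was less so.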
